A study of Mus musculus with 18 samples.

Results

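The 10 genes described here encode membrane-proximal brakes of T cell receptor (TCR) signaling, namely Ptpn22, Ptpn6, Csk, Pag1, Ubash3a, Sla, Sla2, Lax1, Cd5 and Cd6. They were chosen by name, by matching Ensembl identifiers to gene symbols, and make up 10 of the 37991 genes counted in each library and 10 of the 17240 genes that were expressed strongly enough to be tested. RNA-seq was performed on 18 libraries, each from splenic CD4+ T cells, enriched by magnetic selection, of Tg4-H2u mice aged 6 to 12 weeks, in 6 groups of 3. All mice carry a transgenic TCR specific for a myelin basic protein peptide, so nearly all of their CD4+ T cells see 1 antigen (Ag), and the libraries describe that single specificity. Tolerized mice (T) received 7 subcutaneous doses of the 4Y peptide, 3 to 4 days apart and rising from 0.08 to 80 ug, and control mice received PBS on the same schedule, which left cells that are not tolerant and predominantly naive (N). Cells were taken at rest, after a last injection of PBS (N0 and T0), or 2 h after a last injection of 80 ug peptide (NAg and TAg), or were treated for 2 h in culture with 20 ng/ml PMA and 2 uM calcium ionophore A23187 (NPI and TPI). Ag was thus met in the mouse and PI in the dish, and an effect of the culture itself cannot be told apart from that of PI. PI enters the pathway below the TCR, and comparing Ag with PI addresses whether a response is limited near the receptor or at the gene.

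TCR signaling starts when the kinase Lck phosphorylates the CD3 and zeta chains, on which Zap70 is recruited and activated. Brakes act on these first steps. Csk phosphorylates the inhibitory tyrosine of Lck, the transmembrane adaptor encoded by Pag1 holds Csk at the membrane, the phosphatases encoded by Ptpn22 and Ptpn6 remove activating phosphates, Ubash3a encodes a suppressor of TCR signaling that binds ubiquitin, Sla and Sla2 encode adaptors that lower TCR levels together with Cbl ligases, Lax1 encodes a membrane adaptor that dampens signaling, and CD5 and CD6 are related surface receptors that recruit inhibitory molecules. Several of these genes are also known to respond to TCR signals themselves, CD5 on thymocytes being the textbook example.

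Promoter sequences are shown for genes with the widest ranges of expression below, over 250 bases before to 50 bases after the annotated start, 5′ to 3′, from RefSeq on the GRCm38.p6 build. Capitals mark GGAAA, the core bound by NFAT, or its reverse complement TTTCC. NFAT and AP-1 are the factors that Ca2+ and PMA switch on.
Ptpn22 first start, chr3:103859545-103859844, plus strand: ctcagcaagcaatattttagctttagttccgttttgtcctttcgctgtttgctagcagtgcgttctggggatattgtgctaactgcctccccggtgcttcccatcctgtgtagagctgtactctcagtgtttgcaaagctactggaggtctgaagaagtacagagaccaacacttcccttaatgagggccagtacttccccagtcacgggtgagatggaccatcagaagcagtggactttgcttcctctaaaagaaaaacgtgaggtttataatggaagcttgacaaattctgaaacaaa
Ptpn22 second start, chr3:103860027-103860326, plus strand: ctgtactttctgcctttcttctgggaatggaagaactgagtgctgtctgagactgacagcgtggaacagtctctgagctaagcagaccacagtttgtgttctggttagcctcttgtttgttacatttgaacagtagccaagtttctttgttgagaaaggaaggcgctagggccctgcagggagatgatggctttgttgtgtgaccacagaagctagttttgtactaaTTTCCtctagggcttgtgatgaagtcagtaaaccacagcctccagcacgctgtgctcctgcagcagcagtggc
Ubash3a, chr17:31207816-31208115, plus strand: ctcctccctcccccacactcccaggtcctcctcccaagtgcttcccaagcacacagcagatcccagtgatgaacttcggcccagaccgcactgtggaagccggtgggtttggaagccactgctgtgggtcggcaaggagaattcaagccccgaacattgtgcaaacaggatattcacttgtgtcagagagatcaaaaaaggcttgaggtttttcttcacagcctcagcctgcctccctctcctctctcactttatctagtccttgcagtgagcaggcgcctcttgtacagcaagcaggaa
Sla2, chr2:156887172-156887471, minus strand: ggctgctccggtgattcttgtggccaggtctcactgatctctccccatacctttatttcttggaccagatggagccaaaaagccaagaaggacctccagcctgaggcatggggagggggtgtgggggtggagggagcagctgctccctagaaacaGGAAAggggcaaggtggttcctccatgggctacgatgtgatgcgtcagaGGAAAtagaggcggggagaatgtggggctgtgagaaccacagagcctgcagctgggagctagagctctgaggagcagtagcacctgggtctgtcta
Lax1 first start, chr1:133690059-133690358, minus strand: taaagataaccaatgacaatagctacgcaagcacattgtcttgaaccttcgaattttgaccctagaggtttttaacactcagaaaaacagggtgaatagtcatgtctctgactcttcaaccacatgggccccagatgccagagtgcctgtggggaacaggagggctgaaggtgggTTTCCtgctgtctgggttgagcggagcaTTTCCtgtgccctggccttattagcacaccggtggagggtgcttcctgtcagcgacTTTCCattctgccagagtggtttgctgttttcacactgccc
Promoters were at hand for 7 of the 10 members, and those of Pag1, Sla and Cd6 were not used here. The AP-1 sequence TGANTCA, which reads the same on both strands, had 0 matches in the promoters of all 7 members, and 7.81% of all 32851 promoters of this length held it. The NFAT core occurred in 61.3% of them on either strand. The first Ptpn22 promoter and that of Ubash3a had 0 matches, the second Ptpn22 promoter 1, Sla2 2 and the first Lax1 promoter 3. A match is a description of these letters only.

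Total counts per library ranged from 10758571 to 24119489 and were highest after PI. The 8 CD4 T cell markers were all detected in every group, with summed levels from 1230 CPM (counts scaled to a fixed library size) in NAg to 4753 CPM in NPI. These markers did not move together. Mean Cd28 was 312 CPM in N0 and 1903 CPM in NPI, whereas mean Tcf7 was 989 and 788 CPM. The 12 neutrophil markers summed to between 10.02 and 18.6 CPM in N0, 143 and 244 CPM in T0, 17.4 and 36.3 CPM in NAg, 187 and 342 CPM in TAg, 10.7 and 17.2 CPM in NPI, and 33.7 and 54.7 CPM in TPI. The sums were thus apart between the states in every setting, and lower in TPI than in T0. Single markers did not all follow. Mean Mpo was 28.1 CPM in T0 and 28.4 CPM in TPI, whereas mean S100a8 was 43.9 and 1.22 CPM. Mean Cxcr2 was 5.57 CPM in NPI and 4.85 CPM in TPI. In such bulk samples, fewer cells of a type and less RNA per cell cannot be told apart. Mice of both sexes were used, and 9 libraries held at least 5111 Y-linked reads while the other 9 held at most 18. All N0 and NAg libraries were of the second kind and all NPI and TPI libraries of the first, whereas T0 and TAg held both, so sex and PI differ together between NPI and N0. The TMM scaling used here left the median log2 fold change of all genes between -0.10 and 0.01 in the 7 comparisons between groups, whereas plain library totals (chosen as an alternative after seeing the data) moved it to -0.63 in NPI:N0 and -0.88 in TPI:T0. Members whose direction depends on that choice are marked.

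Normalized counts are read counts rescaled by TMM library size to a shared depth, and RPKM also divides by exon length, so that genes can be compared. In RPKM, the resting naive cells expressed Csk at the highest level of the 10, at 100.2 RPKM ± 5.61 (SD, n = 3), followed by Cd5 at 69.8 RPKM ± 10.02 (SD, n = 3), Ptpn6 at 55.1 RPKM ± 6.57 (SD, n = 3) and Cd6 at 52.5 RPKM ± 4.04 (SD, n = 3). The lowest was Sla2 at 18.8 RPKM ± 3.30 (SD, n = 3). After PI in tolerized cells, Ptpn22 was the highest of the 10 at 601 RPKM ± 7.24 (SD, n = 3) and Sla2 the lowest at 4.22 RPKM ± 0.46 (SD, n = 3). The range over the 6 groups, as the highest over the lowest mean normalized count, was 14.0-fold for both Ptpn22 and Sla2. Ptpn22 was highest in TPI and lowest in N0, and Sla2 highest in N0 and lowest in TAg. The range was 7.44-fold for Lax1, 7.23-fold for Ubash3a, 5.66-fold for Sla, 4.06-fold for Pag1 and 3.51-fold for Cd5. It was smallest for Ptpn6 (2.39-fold), Csk (1.88-fold) and Cd6 (1.87-fold). The plot of normalized counts by library shows every value behind these ranges.

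In resting cells, tolerization went with more Ptpn22, Sla, Lax1 and Cd5 RNA and with less Pag1 and Ubash3a RNA. Of the 10 members, 6 passed the test in the comparison of T0 with N0 (T0:N0) at an adjusted p under 0.05 (4 higher and 2 lower), where 20.4% of all tested genes passed. Replicates of T0 and N0 did not overlap for 7 members, against 35.0% of all tested genes. The median log2 fold change was 0.07 over the members and -0.08 over all tested genes. The call rule that also asks for a 2-fold change and a mean count above 50 was met by 0 members, and by 3.25% of all tested genes. When scores of erythroid and myeloid markers entered the fit as covariates, 2 members (Ptpn22 and Sla) kept the call, and the 8 erythroid markers found summed to between 2.45 and 14.7 CPM in N0 and between 15.3 and 153 CPM in T0. The 9 macrophage markers summed to between 28.8 and 46.6 CPM in N0 and between 23.6 and 32.7 CPM in T0. The myeloid score averages neutrophil and macrophage scores, and the neutrophil sums did not overlap between T0 and N0. Marker levels and tolerization therefore cannot be told apart in the fit with these scores. In that fit 0.847% of all tested genes were higher and 0.998% lower, and Pag1 (-0.48), Lax1 (0.33) and Cd5 (0.73) kept their direction without passing, as did Ubash3a.

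After Ag, the order of the cell states turned for several brakes. In TAg:NAg, 6 members passed (4 higher and 2 lower), where 39.4% of all tested genes did. Ptpn22 and Sla were lower in TAg than in NAg, and Ptpn6, Csk, Ubash3a and Lax1 were higher. Replicates were apart for 7 members, against 47.7% of all tested genes, and the median log2 fold change was 0.13 over the members and 0.01 over all tested genes. The 2-fold rule was met by 3 members (Ptpn22, Sla and Lax1), and by 5.66% of all tested genes.

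Under PI, 9 members differed between TPI and NPI (6 higher and 3 lower), where 37.9% of all tested genes did. Ptpn22, Sla, Lax1, Cd5, Cd6 and Csk were higher in TPI, Pag1, Ubash3a and Sla2 were lower, and Ptpn6 did not pass. Replicates were apart for 9 members, against 50.5% of all tested genes, and the median log2 fold change was 0.35 over the members and -0.04 over all tested genes. Again 3 members (Sla, Cd5 and Ubash3a) met the 2-fold rule, against 5.60% of all tested genes.

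**Figure D1:**
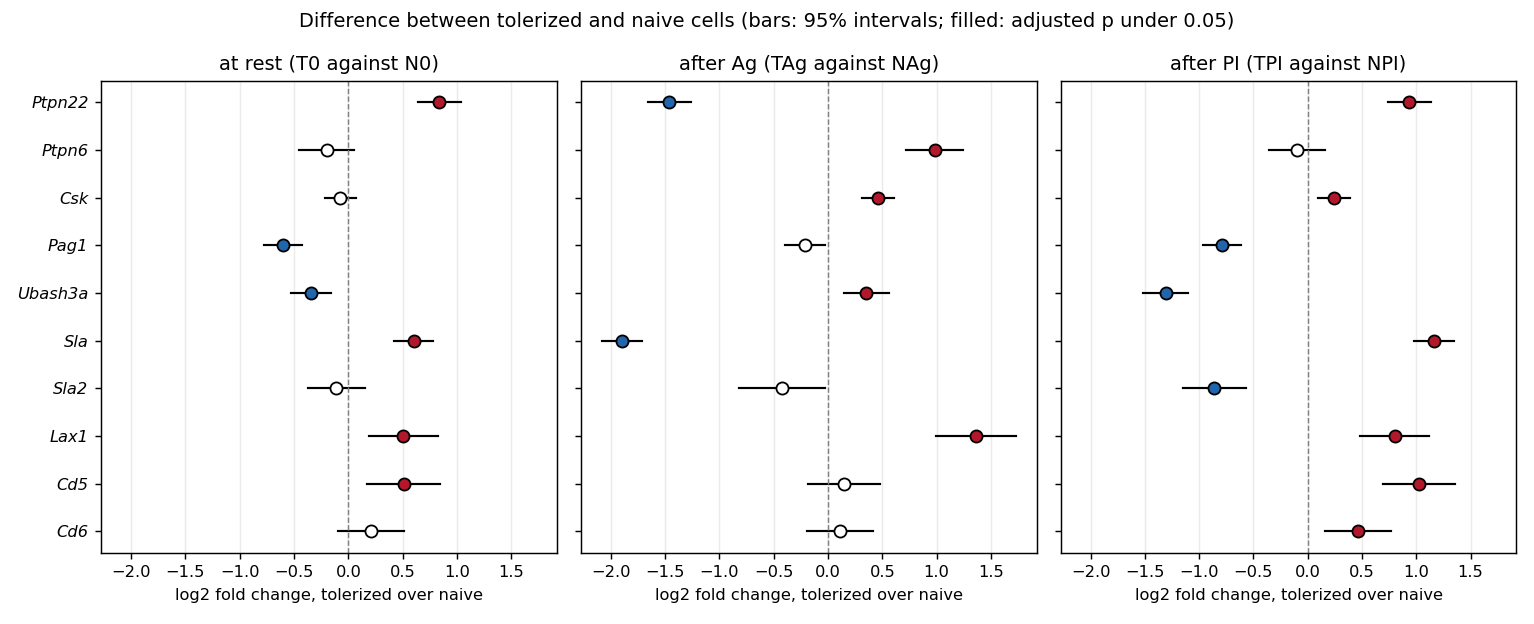
Log2 fold change of each gene between tolerized and naive cells at rest, after Ag and after PI, with 95% intervals of the edgeR model (18 libraries). Filled points pass an adjusted p of 0.05, red where higher and blue where lower in tolerized cells, and Ptpn22 and Sla lie right of 0 at rest and after PI but left of 0 after Ag.

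Stimulation itself changed most members, as it did most genes. In naive cells all 10 passed after Ag (4 higher and 6 lower) against 65.5% of all tested genes (32.1% higher and 33.4% lower), and 8 after PI (4 higher and 4 lower) against 61.4% (28.6% higher and 32.7% lower). In tolerized cells 9 passed after Ag (3 higher and 6 lower) against 59.8% (29.9% higher and 29.8% lower), and 10 after PI (5 higher and 5 lower) against 68.3% (32.0% higher and 36.3% lower). Replicates were apart from rest for 10 members in NAg, 9 in TAg, 8 in NPI and 10 in TPI, against 68.1%, 64.5%, 66.4% and 72.5% of all tested genes. A 2-fold change was met by 6 members in NAg, 4 in TAg, 5 in NPI and 5 in TPI, against 30.3%, 23.4%, 20.3% and 27.1%. When the same marker scores entered the fit, the PI calls of Cd5 and Cd6 in naive cells and of Csk, Pag1, Lax1 and Cd6 in tolerized cells were lost. The shares over all tested genes also fell, to 19.0% higher and 19.8% lower in NPI:N0 and 20.3% and 18.7% in TPI:T0. With sex as a covariate, the 8 calls in NPI:N0 were kept. All N0 libraries differ in sex from all NPI libraries, so the sex effect in that fit comes from T0 and TAg alone. That fit cannot separate sex from PI. Comparisons of 1 state share their resting libraries. The median Ag response was -0.88 in naive and -0.32 in tolerized cells over the members, and 0.00 and -0.05 over all tested genes. Whether the states responded differently was tested as an interaction. It passed for 7 members after Ag (5 higher and 2 lower in tolerized cells), where 21.7% of all tested genes passed (14.6% higher and 7.09% lower), and for 4 members after PI (2 higher and 2 lower), where 20.2% passed (12.7% higher and 7.52% lower). The 2-fold rule was met by 3 members (Ptpn22, Sla and Ptpn6) for the Ag difference, against 5.27% of all tested genes, and by 0 for the PI difference, against 3.21%.

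**Figure D2:**
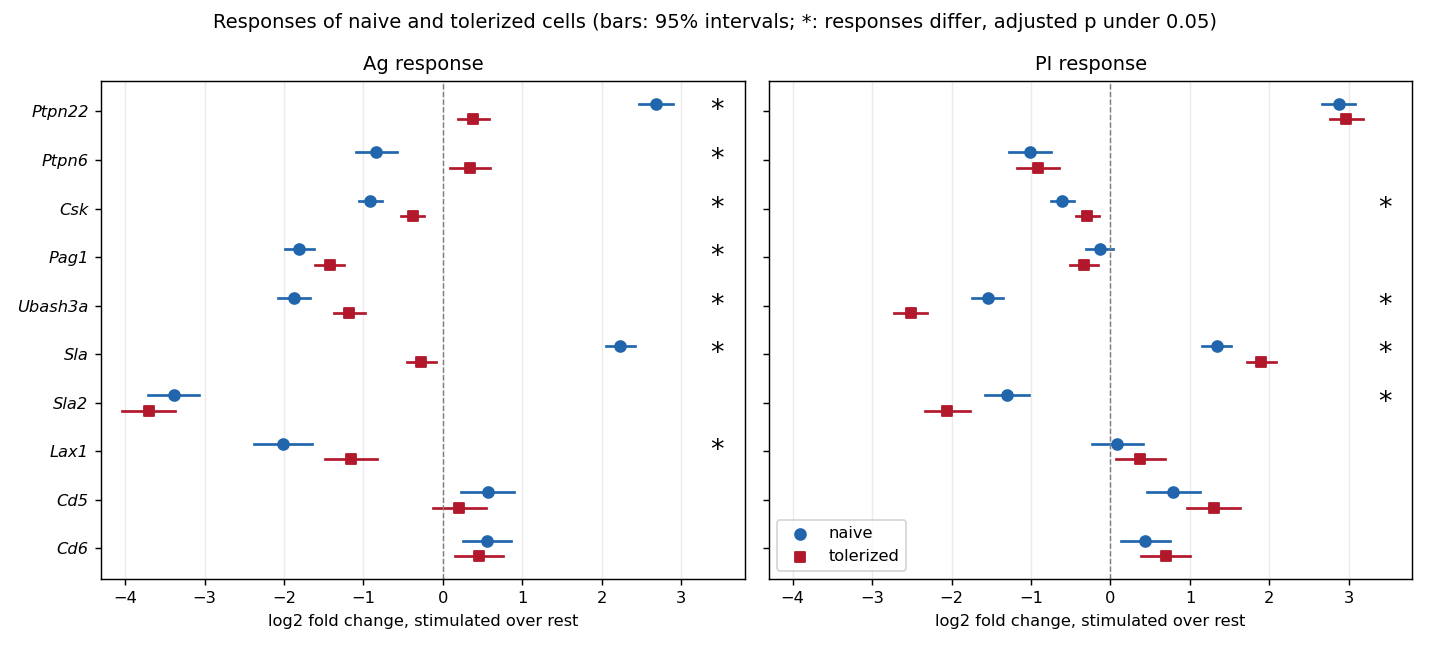
Log2 fold change of each gene after Ag and after PI relative to rest, in naive cells (blue circles) and tolerized cells (red squares), with 95% intervals of the edgeR model. Asterisks mark the 7 genes after Ag and the 4 after PI whose responses differed between the states, and the widest gaps are those of Ptpn22 and Sla after Ag.

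Ptpn22 (chr3:103663718-103716170, plus strand; gene positions are from the NCBIM37 build) encodes a phosphatase that acts on Lck and Zap70. Its normalized counts were 1748, 1637 and 2000 in N0 and 2752, 3021 and 3858 in T0. After Ag they were 11029, 12168 and 11377 in NAg but 4273, 4244 and 4031 in TAg. All NAg libraries lay above all TAg libraries, while every T0 library lay above every N0 library. After PI the counts were 12337, 14057 and 13036 in NPI and 25483, 25024 and 24911 in TPI, the highest of the 6 groups. Ptpn22 was thus higher in tolerized cells at rest (log2 fold change of 0.84 ± 0.10 SE, adjusted p = 2.22e-06) and after PI (0.94 ± 0.09 SE, adjusted p = 3.88e-08), and lower after Ag (-1.46 ± 0.10 SE, adjusted p = 4.3e-11). Every adjusted p is a Benjamini-Hochberg value of edgeR's quasi-likelihood test.

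In response to Ag, Ptpn22 rose 6.42-fold in naive cells (log2 2.68 ± 0.10 SE, adjusted p = 2.56e-17) and 1.30-fold in tolerized cells (log2 0.38 ± 0.10 SE, adjusted p = 0.00124). The difference between both responses was -2.30 ± 0.14 SE (adjusted p = 3.01e-11). The small rise in tolerized cells lost its call with plain library totals (0.06), and was 0.25 without T0 replicate 1. PI raised Ptpn22 in both states, by 2.87 ± 0.10 SE in naive cells (adjusted p = 3.02e-17) and by 2.97 ± 0.10 SE in tolerized cells (adjusted p = 7.65e-18). These PI responses were not shown to differ (difference of 0.10, 95% interval -0.18 to 0.38, adjusted p = 0.677), and the sign of that difference changed with sex as a covariate (-0.06) and with library totals (-0.12).

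Sla (chr15:66612381-66663391, minus strand) encodes an adaptor that directs the zeta chain to degradation. At rest its normalized counts were 2899, 2784 and 2938 in N0 and 4073, 4098 and 4931 in T0. After Ag they reached 13018, 13768 and 13764 in NAg but were 3328, 3827 and 3709 in TAg, all of which lay below the T0 libraries. PI gave 6798, 7949 and 7036 in NPI and 15272, 15245 and 18252 in TPI. No neighbouring groups overlapped, and the order was TPI, NAg, NPI, T0, TAg and N0.

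The Sla differences between tolerized and naive cells were 0.60 ± 0.09 SE at rest (adjusted p = 3.43e-05), -1.90 ± 0.09 SE after Ag (adjusted p = 1.34e-13) and 1.16 ± 0.09 SE after PI (adjusted p = 3.43e-10), on the log2 scale. Ag raised Sla 4.70-fold in naive cells (log2 2.23 ± 0.09 SE, adjusted p = 9.22e-17), whereas it fell by 0.27 ± 0.09 SE in tolerized cells (adjusted p = 0.00952). That small fall lost its call without T0 replicate 3 (-0.20) and without TAg replicate 1 (-0.22). The difference of the Ag responses was -2.50 ± 0.12 SE (adjusted p = 1.5e-12), the largest in size among the 10 members, and kept its call in every alternative run. PI raised Sla by 1.34 ± 0.09 SE in naive cells (adjusted p = 3.3e-12) and by 1.90 ± 0.09 SE in tolerized cells (adjusted p = 3.14e-15), and here the response was the larger one in tolerized cells (difference 0.56 ± 0.12 SE, adjusted p = 0.00176). Sla lies within the thyroglobulin gene Tg on the opposite strand, with no shared exon and at most 32 Tg reads in any library.

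Ptpn6 (chr6:124670725-124688732, minus strand) encodes a phosphatase with SH2 domains that opposes Lck and Zap70. Resting counts did not overlap, at 2391, 1908 and 2027 in N0 and 1839, 1813 and 1861 in T0. With Ag they were 1097, 962 and 1481 in NAg and 2429, 2302 and 2260 in TAg, which lay above all NAg and all T0 libraries. With PI they were low in both states, at 936, 1080 and 1117 in NPI and 919, 914 and 1091 in TPI. Ptpn6 was therefore 1.97-fold higher in TAg than in NAg (log2 0.98 ± 0.12 SE, adjusted p = 5.51e-06), and did not pass in T0:N0 (-0.20, 95% interval -0.45 to 0.06, adjusted p = 0.276) or in TPI:NPI (-0.10, 95% interval -0.36 to 0.16, adjusted p = 0.59). The resting value passed with a B cell marker score as covariate (-0.29).

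Ag lowered Ptpn6 in naive cells by a log2 fold change of -0.84 ± 0.12 SE (adjusted p = 6.97e-06), and the response of tolerized cells was 0.34 ± 0.12 SE (adjusted p = 0.0204). The latter lost its call without any 1 of the T0 replicates 1, 2 and 3 or TAg replicate 1 (0.31, 0.30, 0.32 and 0.31) and was 0.01 with library totals. The difference of the responses, 1.18 ± 0.17 SE (adjusted p = 7.07e-05), kept its call in every alternative run. With PI, Ptpn6 fell by 1.01 ± 0.12 SE in naive cells (adjusted p = 8.71e-07) and by 0.91 ± 0.12 SE in tolerized cells (adjusted p = 2.48e-06). Ptpn6 shares 195 exonic bases with RP24-297C1.11 on the opposite strand, which had at most 6 reads in any library.

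Csk (chr9:57474454-57493460, minus strand), the kinase that restrains Lck, had 3999, 3603 and 3677 normalized counts in N0 and 3330, 3541 and 3846 in T0. Its counts were 1924, 1913 and 2151 in NAg and 2796, 2813 and 2633 in TAg. After PI they were 2427, 2437 and 2541 in NPI and 2821, 2830 and 3096 in TPI. Csk was thus highest at rest, where the states overlapped, and lowest in NAg. It fell with Ag by 0.91 ± 0.07 SE in naive cells (adjusted p = 2.63e-11) and by 0.38 ± 0.07 SE in tolerized cells (adjusted p = 4.55e-05), a difference of 0.53 ± 0.10 SE (adjusted p = 0.000331).

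After Ag, Csk was 1.38-fold higher in TAg than in NAg (log2 0.46 ± 0.07 SE, adjusted p = 1.56e-05), and after PI 1.18-fold higher in TPI than in NPI (log2 0.24 ± 0.07 SE, adjusted p = 0.00818). At rest the value was -0.07 (95% interval -0.22 to 0.07, adjusted p = 0.505), and its sign changed with sex as a covariate and with library totals. With PI, Csk fell by 0.61 ± 0.07 SE in naive cells (adjusted p = 5.54e-08) and by 0.29 ± 0.07 SE in tolerized cells (adjusted p = 0.000693), which differed by 0.31 ± 0.10 SE (adjusted p = 0.0254). The TPI:NPI value was not called without TPI replicate 3 (0.19), with library totals (0.13) or with erythroid and myeloid marker scores (0.29). The difference of the PI responses was not called without N0 replicate 1 (0.28), T0 replicate 1 (0.28) or TPI replicate 3 (0.27), with sex as a covariate (0.23) or with only the groups compared in the fit (0.23), and was 0.10 with library totals.

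Pag1 (chr3:9687479-9833679, minus strand), the membrane anchor of Csk, had 4128, 4924 and 4223 normalized counts in N0 and 3136, 3059 and 2574 in T0. Ag left 1207, 1222 and 1359 in NAg and 1114, 1166 and 992 in TAg. After PI the counts were 4125, 3762 and 4190 in NPI and 2202, 2398 and 2380 in TPI. Tolerized libraries lay below naive ones without overlap in all 3 settings. The log2 differences were -0.60 ± 0.08 SE at rest (adjusted p = 2.66e-05), -0.21 ± 0.09 SE after Ag (adjusted p = 0.0601) and -0.79 ± 0.09 SE after PI (adjusted p = 9.52e-08).

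The value after Ag did not pass in the test used here but did with DESeq2 (-0.25), with DESeq2's size factors (-0.25), without the filter on low counts (-0.21) and without TAg replicate 2 (-0.26). Ag lowered Pag1 3.50-fold in naive cells (log2 -1.81 ± 0.09 SE, adjusted p = 3.45e-15) and 2.68-fold in tolerized cells (log2 -1.42 ± 0.09 SE, adjusted p = 5.42e-13). The difference of 0.39 ± 0.12 SE (adjusted p = 0.0252) lost its call without N0 replicate 2 (0.32), NAg replicate 1 (0.35), NAg replicate 2 (0.36), TAg replicate 1 (0.36) or TAg replicate 2 (0.34), with DESeq2's size factors (0.34) and with erythroid and myeloid marker scores (0.31). The PI response was -0.14 in naive cells (95% interval -0.31 to 0.04, adjusted p = 0.168) and -0.33 ± 0.08 SE in tolerized cells (adjusted p = 0.00146). The naive value became -0.23 and passed without N0 replicate 1, and became -0.71 with library totals. Csk and its anchor differed between the states under PI, where Csk was higher and Pag1 lower in TPI than in NPI. That Csk value lost its call in some alternative runs, and both genes fell with Ag in both states.

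Ubash3a (chr17:31344818-31379147, plus strand) is a T cell gene of the suppressor of TCR signaling family. It had 1627, 1447 and 1501 normalized counts in N0 and 1088, 1216 and 1303 in T0. Ag left 429, 433 and 386 in NAg and 576, 531 and 490 in TAg. PI left 555, 441 and 568 in NPI and 198, 217 and 218 in TPI, the lowest group. The states did not overlap in any setting. Ubash3a passed in each of the 4 responses. With Ag it fell by 1.87 ± 0.10 SE in NAg:N0 (adjusted p = 1.04e-14), and fell by 1.18 ± 0.09 SE in TAg:T0 (adjusted p = 7.21e-11). With PI it fell by 1.55 ± 0.09 SE in NPI:N0 (adjusted p = 7.98e-13) and fell by 2.51 ± 0.10 SE in TPI:T0 (adjusted p = 1.58e-16). Tolerized cells thus lost less Ubash3a than naive cells after Ag (difference 0.70 ± 0.13 SE, adjusted p = 0.000463) and more after PI (difference -0.96 ± 0.13 SE, adjusted p = 1.4e-05).

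Between the states, Ubash3a was 1.27-fold lower in T0 than in N0 (log2 -0.34 ± 0.09 SE, adjusted p = 0.00868), 1.28-fold higher in TAg than in NAg (log2 0.35 ± 0.10 SE, adjusted p = 0.00589) and 2.48-fold lower in TPI than in NPI (log2 -1.31 ± 0.10 SE, adjusted p = 5.81e-10). The resting difference was not called without T0 replicate 1 (-0.28), with sex as a covariate (-0.23), with library totals (-0.24) or with erythroid and myeloid marker scores (-0.29). Its relative Ubash3b is the other member of that family and one of the brakes listed for comparison. Its mean normalized counts were 748 in N0, 1578 in T0, 5429 in NAg, 5438 in TAg, 1302 in NPI and 5940 in TPI. Ubash3b thus went the other way with Ag and PI in both states, and between the states at rest and after PI. Between TAg and NAg it was not shown to differ (log2 0.002, adjusted p = 0.995). Ubash3b rose with Ag by 2.86 ± 0.14 SE in naive cells (adjusted p = 7.59e-12) and by 1.79 ± 0.14 SE in tolerized cells (adjusted p = 3.6e-09).

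Sla2 (chr2:156698193-156712928, minus strand), the relative of Sla, went in the opposite direction to it in naive cells. Normalized counts were 692, 956 and 744 in N0 and 777, 750 and 690 in T0. After Ag they were 62.3, 94.0 and 71.5 in NAg and 44.0, 68.0 and 58.4 in TAg, the lowest counts of any member. After PI they were 289, 324 and 356 in NPI and 157, 194 and 184 in TPI. Ag lowered Sla2 10.5-fold in naive cells (log2 -3.39 ± 0.16 SE, adjusted p = 4.43e-15) and 13.02-fold in tolerized cells (log2 -3.70 ± 0.16 SE, adjusted p = 2.69e-15), the largest changes of the 10 members in either state. The responses were not shown to differ (-0.31, 95% interval -0.79 to 0.16, adjusted p = 0.384).

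With PI, Sla2 fell by 1.30 ± 0.13 SE in naive cells (adjusted p = 1.16e-08) and by 2.05 ± 0.14 SE in tolerized cells (adjusted p = 6.51e-12), and these differed by -0.75 ± 0.19 SE (adjusted p = 0.00594). TPI was accordingly 1.82-fold below NPI (log2 -0.86 ± 0.14 SE, adjusted p = 3.46e-05). The resting states overlapped (-0.11, 95% interval -0.37 to 0.15, adjusted p = 0.6), and this value changed sign without N0 replicate 2 (0.03), with marker scores (0.14) and with library totals (0.00). TAg and NAg overlapped too (-0.42 ± 0.19 SE, adjusted p = 0.0874), and there the call was gained without NAg replicate 1 (-0.54) or TAg replicate 2 (-0.56). Sla2 shares 731 exonic bases with 1110008F13Rik on the opposite strand. The strand setting of the counting is not given in the sources used here, so reads of the pair may be mixed; 1110008F13Rik went up as Sla2 went down, from a mean of 346 in N0 to 637 in NAg and 639 in TAg.

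Lax1 (chr1:135575606-135586685, minus strand), an adaptor that binds Grb2 and restrains calcium and MAP kinase signals, had 955, 721 and 722 normalized counts in N0 and 1030, 1072 and 1305 in T0. Ag left 231, 156 and 207 in NAg and 461, 637 and 436 in TAg. PI gave 796, 812 and 930 in NPI and 1565, 1445 and 1414 in TPI. Every tolerized library lay above every naive one within each setting. The log2 difference was 0.51 ± 0.15 SE at rest (adjusted p = 0.0253), 1.36 ± 0.17 SE after Ag (adjusted p = 1.1e-05) and 0.80 ± 0.15 SE after PI (adjusted p = 0.000415).

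The resting difference of Lax1 was not called without N0 replicate 2 (0.43), N0 replicate 3 (0.43) or T0 replicate 3 (0.39), or without the filter on low counts (0.51), and those after Ag and PI kept their calls in every alternative run. Ag lowered Lax1 4.03-fold in naive cells (log2 -2.01 ± 0.17 SE, adjusted p = 1.25e-08) and 2.22-fold in tolerized cells (log2 -1.15 ± 0.15 SE, adjusted p = 5.1e-06), with a difference of 0.86 ± 0.23 SE (adjusted p = 0.0124). The PI response was 0.08 in naive cells (95% interval -0.24 to 0.40, adjusted p = 0.66), and -0.03 both without N0 replicate 2 and without N0 replicate 3. In tolerized cells it was 0.38 ± 0.15 SE (adjusted p = 0.0319), but with library totals both PI responses turned to falls that passed the test (-0.50 and -0.42). The tolerized value was not called without T0 replicate 1 (0.28), T0 replicate 2 (0.31), TPI replicate 1 (0.35) or TPI replicate 2 (0.39), without the filter on low counts (0.38), with the replicate block (0.38) or with erythroid and myeloid marker scores (0.76).

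Cd5 (chr19:10792633-10813464, minus strand) and Cd6 (chr19:10863831-10904548, minus strand) are neighbours, 50366 bases apart, and encode surface receptors of the scavenger receptor family. Cd5 had 2199, 1656 and 2067 normalized counts in N0 and 2577, 2469 and 3386 in T0. After Ag the counts were 2446, 3145 and 3159 in NAg and 2940, 3775 and 3004 in TAg, which overlapped. After PI they were 2885, 3515 and 3831 in NPI and 6480, 6805 and 7491 in TPI. The TPI libraries stood clear of all others, 2.03-fold above NPI (log2 1.02 ± 0.15 SE, adjusted p = 8.95e-05).

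At rest Cd5 was 1.42-fold higher in T0 (log2 0.51 ± 0.16 SE, adjusted p = 0.0319). This call was lost without N0 replicate 2 (0.39), N0 replicate 3 (0.54), T0 replicate 1 (0.57) or T0 replicate 3 (0.35), with a B cell marker score as covariate (0.50) and without the filter on low counts (0.51). The 9 B cell markers summed to between 34.3 and 188 CPM in N0 and between 49.3 and 274 CPM in T0. After Ag the states were not shown to differ (0.15, 95% interval -0.18 to 0.48, adjusted p = 0.479). The Ag response was 0.56 ± 0.16 SE in naive cells (adjusted p = 0.00506) and 0.21 in tolerized cells (95% interval -0.13 to 0.54, adjusted p = 0.276), and the latter changed sign with library totals (-0.12). PI raised Cd5 by 0.79 ± 0.16 SE in naive cells (adjusted p = 0.000419) and by 1.30 ± 0.16 SE in tolerized cells (adjusted p = 2.22e-06), and the difference of 0.51 (95% interval 0.04 to 0.98, adjusted p = 0.121) passed only with DESeq2 (0.52) and without T0 replicate 3 (0.69).

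Cd6 had 2569, 2227 and 2533 normalized counts in N0 and 2590, 2554 and 3343 in T0. It had 2778, 3923 and 4066 in NAg and 3742, 4526 and 3346 in TAg. PI gave 3010, 3333 and 3585 in NPI and 4565, 4455 and 4703 in TPI. All neighbouring groups overlapped in the order TPI, TAg, NAg, NPI, T0 and N0, although TPI lay above NPI without overlap (log2 0.47 ± 0.14 SE, adjusted p = 0.0164). Without NPI replicate 1 (0.41) or TPI replicate 3 (0.45) that call was lost. The states were not shown to differ at rest (0.21, 95% interval -0.09 to 0.52, adjusted p = 0.339) or after Ag (0.11, 95% interval -0.20 to 0.41, adjusted p = 0.59), the latter changing sign without NAg replicate 1 (-0.04) or TAg replicate 2 (-0.02).

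Cd6 rose with Ag by 0.56 ± 0.14 SE in naive cells (adjusted p = 0.00288) and by 0.45 ± 0.14 SE in tolerized cells (adjusted p = 0.0122). With PI it rose by 0.44 ± 0.14 SE in naive cells (adjusted p = 0.0147) and by 0.69 ± 0.14 SE in tolerized cells (adjusted p = 0.000446), both of which changed sign with library totals (-0.14 and -0.10). Calls were lost for TAg:T0 without T0 replicate 1 (0.36), T0 replicate 2 (0.35) or TAg replicate 2 (0.33) and with library totals (0.13), and for NPI:N0 without N0 replicate 2 (0.33) or NPI replicate 3 (0.38). With library totals the naive Ag responses of Cd5 and Cd6 were 0.16 and 0.15 and the naive PI response of Cd5 was 0.21, none of which was called.

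Between Cd5 and Cd6 lies A430093F15Rik (chr19:10815437-10860533, plus strand), an annotated gene that starts 1972 bases from Cd5 and ends 3297 bases from Cd6. Of all tested genes it was the one whose pattern was most like that of Cd5 (Pearson r of 0.95 over the 18 libraries, on log2 CPM), and its further values were looked up after this was seen. Its mean normalized counts were 77.6 ± 19.6 in N0, 290.5 ± 41.7 in T0, 307 ± 12.2 in NAg, 582 ± 76.5 in TAg, 509 ± 109 in NPI and 2355 ± 56.7 in TPI (SD, n = 3). A430093F15Rik was thus higher in tolerized cells at rest (log2 1.90 ± 0.18 SE, adjusted p = 2.14e-06), after Ag (0.92 ± 0.15 SE, adjusted p = 0.000134) and after PI (2.21 ± 0.15 SE, adjusted p = 2.69e-09). The corresponding values of Cd5 were 0.51, 0.15 and 1.02, and the difference between the genes was not tested. No exon of it is shared with Cd5 or Cd6.

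For the other members the gene with the most similar pattern was Trib1 for Ptpn22 (r of 0.99), Arhgef10 for Sla (0.97), Pdia4 for Ptpn6 (0.97), Dync1i2 for Csk (0.97), Calcrl for Pag1 (0.99), Mlh3 for Ubash3a (0.99), Aak1 for Sla2 (0.99), Zfhx2 for Lax1 (0.98) and Map3k11 for Cd6 (0.93). These are Pearson correlations over the 18 libraries, which fall into 6 groups and share their scaling, so they describe likeness across groups. Among the members, the pairs Ptpn22 and Sla (0.93), Pag1 and Sla2 (0.90) and Cd5 and Cd6 (0.88) ran together, and Ptpn22 and Ubash3a ran against each other (-0.92).

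The rest of the proximal pathway was followed with 27 activating genes, such as the CD3 chains, Lck, Zap70 and Lat, and 20 other brakes. At rest, 0 of the 27 activating genes were higher and 12 were lower in T0 than in N0, where 8.42% and 12.0% of all tested genes were, and their median was -0.20 against -0.08 over all genes. The summed CD4 T cell markers were also lower, at 2566 to 2993 CPM in T0 against 3105 to 3387 CPM in N0. Except for Tcf7, these markers are themselves among the 27 activating genes, so their sum is not a separate observation. Mean Tcf7 was 989 CPM in N0 and 820 CPM in T0, and mean Cd3e 281 and 287 CPM. With erythroid and myeloid marker scores in the fit, 0 activating genes were higher and 0 lower, and 2 other brakes were higher and 0 lower. Of all tested genes, only 0.847% were higher and 0.998% lower in that fit. Library totals gave 0 and 10 activating genes and 8 and 1 other brakes, against 10.2% and 5.36% of all tested genes. The largest falls were in Trat1 (-1.01 ± 0.23 SE, adjusted p = 0.00687), an adaptor that stabilizes the TCR, Themis (-0.67 ± 0.15 SE, adjusted p = 0.00418) and the kinase gene Txk (-0.63 ± 0.10 SE, adjusted p = 0.000144). Of the 20 other brakes 6 were higher and 4 lower, led by Ubash3b (1.08 ± 0.14 SE, adjusted p = 5.55e-05) and the phosphatase gene Ptprj (0.90 ± 0.29 SE, adjusted p = 0.0484), with the adaptor gene Sit1 the lowest (-0.82 ± 0.12 SE, adjusted p = 3.21e-05). Cblb, a ubiquitin ligase gene with a known role in anergy, was higher by 0.58 ± 0.10 SE (adjusted p = 0.000156). It was lower in TAg than in NAg (-0.30 ± 0.10 SE, adjusted p = 0.0146) and higher in TPI than in NPI (1.01 ± 0.10 SE, adjusted p = 1.43e-08).

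After Ag, 8 activating genes were higher and 10 lower in TAg than in NAg, and 9 other brakes were higher and 5 lower, against 20.9% and 18.5% of all tested genes. The CD3 genes Cd3g (1.01 ± 0.09 SE, adjusted p = 1.24e-08) and Cd3e (0.96 ± 0.09 SE, adjusted p = 1.51e-08) led the activating genes that were higher, and Themis those that were lower (-1.78 ± 0.15 SE, adjusted p = 2.93e-07). Among other brakes Ptprj (1.79 ± 0.29 SE, adjusted p = 0.000293) and the diacylglycerol kinase gene Dgka (1.53 ± 0.12 SE, adjusted p = 4.81e-09) were higher, and Dusp22 (-0.82 ± 0.16 SE, adjusted p = 0.000292) was lower. After PI, 7 activating genes were higher and 15 lower in TPI than in NPI, and 11 other brakes were higher and 5 lower, against 18.2% and 19.7% of all tested genes. With the marker scores these became 5 and 9 activating genes and 8 and 3 other brakes, against 12.4% and 10.1%. The erythroid markers summed to between 1.06 and 4.95 CPM in NPI and between 15.9 and 27.5 CPM in TPI. With library totals the higher and lower activating genes were 13 and 8 after Ag and 4 and 16 after PI. The shares over all tested genes were then 30.8% and 10.3% after Ag and 14.2% and 26.6% after PI.

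Ag itself raised 7 and lowered 19 of the 27 activating genes in naive cells, against 32.1% and 33.4% of all tested genes, and raised 7 and lowered 16 in tolerized cells, against 29.9% and 29.8%. Zap70 rose in both states (2.02 and 1.66), while the adaptor genes Grap2 (-3.44 and -2.65) and Fyb (-3.28 and -2.42) fell, in naive and tolerized cells in that order. Of the 20 other brakes 6 rose and 9 fell in naive cells, and 6 rose and 8 fell in tolerized cells. Cblb rose by 2.28 ± 0.10 SE and 1.40 ± 0.10 SE, with a difference of -0.88 (adjusted p = 4.25e-05), and Dgka fell, with values of -3.78 ± 0.13 SE and -2.07 ± 0.12 SE, with a difference of 1.72 (adjusted p = 2.86e-07). The Ag response was higher in tolerized than in naive cells for 12 and lower for 4 of the 27 activating genes, and higher for 6 and lower for 5 of the 20 other brakes, against 14.6% and 7.09% of all tested genes. In the plot of both Ag responses, Ptpn22 and Sla lie far below the line of equal responses.

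**Figure D3:**
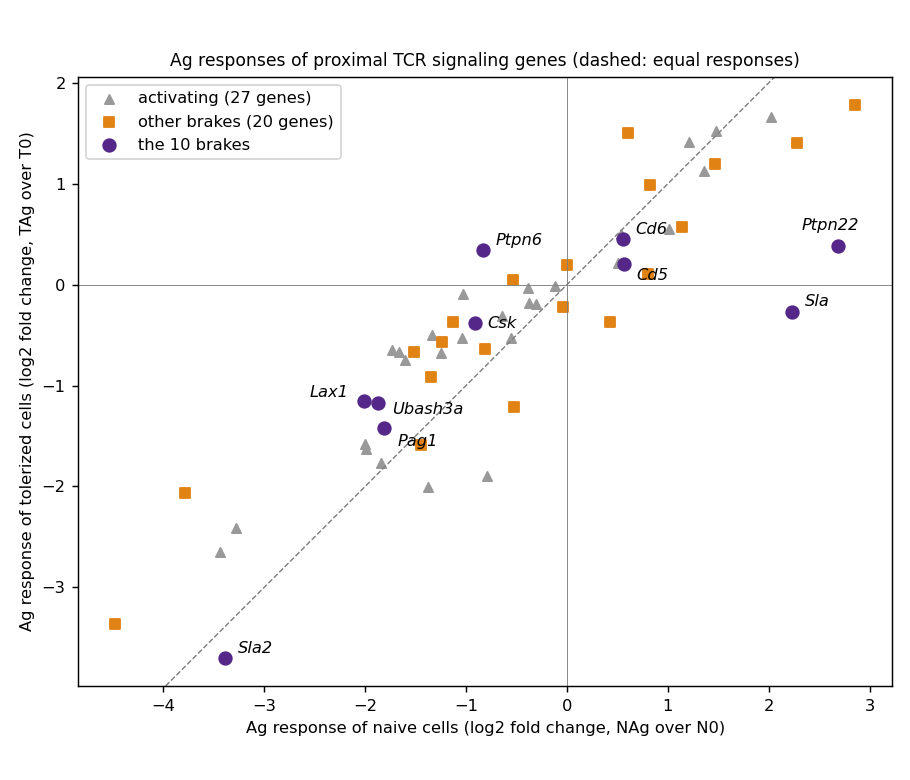
Ag response of tolerized cells against that of naive cells, as log2 fold changes of the edgeR model, for the 10 brakes (purple, named), 27 activating genes (grey triangles) and 20 other brakes (orange squares). The dashed line marks equal responses, and Ptpn22 (2.68 and 0.38) and Sla (2.23 and -0.27) lie farthest below it among the 10.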

How the data were processed

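The authors aligned paired-end reads to the mouse genome (mm9, NCBIM37) with TopHat2 2.1.1, counted them on Ensembl genes with HTSeq 0.9.1 and deposited raw counts per gene and library, without normalization or pooling. Symbols and positions were matched by identifier for 37205 of 37991 genes. Genes with a mean normalized count of at least 3 in 1 group or more were tested. In R 4.3.3 with edgeR 4.0.16, libraries were scaled by TMM, all 18 libraries were fitted together with 1 mean per group, and 9 contrasts went through its robust quasi-likelihood F test. An adjusted p is always a Benjamini-Hochberg value over the 17240 tested genes, and called means an adjusted p under 0.05. Normalized counts are counts over TMM-scaled library sizes, brought back to a common scale. RPKM divides them by merged exon length. Standard errors come from the edgeR fit.

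The members and lists were chosen with earlier results of these data known. The rule for names covered all members, the 3 largest rises and falls of each pathway list in T0:N0, TAg:NAg, NAg:N0 and TAg:T0, and the 2 genes most like each member, of which the text gives the first. Cblb, Dgka and Ubash3b fall under it, and their values in other contrasts were added after seeing them. All groups were taken from the labels. The labels number replicates 1 to 3 in every group without saying what equal numbers share, and no 2 libraries of a group agreed within sampling noise. The libraries are named biological replicates, without saying which animals each came from, so p-values measure the spread between these samples. Scripts were tested on simulated data. Alternatives were DESeq2 1.42.0, alone and together with edgeR, DESeq2's size factors, no filter and a 2-fold rule on the edgeR values. Further ones were fewer groups in the fit, a replicate block, marker scores or sex as covariates and left-out libraries. The paper also asked for a 2-fold change by DESeq2 when both tools were joined, and that limit was not applied to the joint calls here. Library totals, subsets by Xist or Y-linked reads, and the pathway lists with marker scores were added after seeing the data.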

Additional observations from a re-analysis of the deposited data

Results flagged for a closer look

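For 7 members the Ag response differed between tolerized and naive cells by the edgeR interaction test, which is why they are listed here. On the log2 scale, the tolerized minus the naive response was -2.30 for Ptpn22, -2.50 for Sla, 1.18 for Ptpn6, 0.86 for Lax1, 0.70 for Ubash3a, 0.53 for Csk and 0.39 for Pag1. For 4 members the PI response differed by the same test, by -0.96 for Ubash3a, -0.75 for Sla2, 0.56 for Sla and 0.31 for Csk. Of all tested genes, 21.7% passed this test for Ag and 20.2% for PI. The Ag value of Pag1 and the PI value of Csk lost their calls in several alternative runs, as given above. Ubash3a and Sla thus changed the sign of the difference between Ag and PI. No explanation of these differences was tested.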

How the results depend on the processing

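The number of members called moved by over 1.5 times in these cases. The rule that also asks for a 2-fold change and a mean count above 50 left 0 members in T0:N0, 3 in TAg:NAg, 3 in TPI:NPI, 6 in NAg:N0, 4 in TAg:T0, 5 in NPI:N0, 5 in TPI:T0, 3 for the Ag response difference and 0 for the PI response difference. Erythroid and myeloid marker scores left 2 in T0:N0 and 6 in TPI:T0. In that fit 0.847% of all tested genes were higher and 0.998% lower in T0:N0, and 20.3% and 18.7% in TPI:T0. Libraries with high Xist alone, a subset chosen after seeing the data, also moved the number in T0:N0. That subset holds 1 T0 library, assumed to vary like the other groups, and 2 TAg libraries, and the subset with Y-linked reads holds 1 TAg library, so the calls lost in them say nothing about stability. Without the filter on low counts, T0:N0 kept 4, losing Lax1 and Cd5. DESeq2 called 6, 7, 9, 10, 9, 8, 10, 7 and 5 members in the order of these 9 comparisons. For DESeq2, no filter, left-out libraries and the replicate block, the share of all tested genes called is not given here. Those counts therefore describe the members only and do not set them apart from other genes.

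Leaving out 1 library at a time gave 4 to 6 members in T0:N0, 6 to 8 in TAg:NAg, 7 to 9 in TPI:NPI, 10 in NAg:N0, 7 to 9 in TAg:T0, 7 to 9 in NPI:N0, 9 to 10 in TPI:T0, 6 to 7 for the Ag and 3 to 5 for the PI response difference. Signs changed for values that were not called, namely Sla2 in T0:N0 (-0.21 to 0.034), Cd6 in TAg:NAg (-0.0399 to 0.21), Lax1 in NPI:N0 (-0.034 to 0.18) and the Ag response difference of Cd6 (-0.26 to 0.057, the latter without T0 replicate 3). These were Sla2 without N0 replicate 2, Cd6 without NAg replicate 1 or TAg replicate 2, and Lax1 without N0 replicate 2 or 3.

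Other signs changed as follows. With library totals in place of TMM factors, chosen after seeing the data, log2 fold changes became 0.031 for Csk and 0.0044 for Sla2 in T0:N0, -0.12 for Cd5 in TAg:T0, -0.50 for Lax1 and -0.14 for Cd6 in NPI:N0, -0.42 for Lax1 and -0.10 for Cd6 in TPI:T0, and -0.12 for Ptpn22 and -0.12 for Ptpn6 in the PI response difference. Among these, Lax1 (both), Cd6 (both) and no other had been called or became called. Sex as a covariate gave 0.0091 for Csk in T0:N0 and -0.057 for Ptpn22 in the PI response difference. High Xist libraries alone gave 0.033 for Csk in T0:N0 and -0.012 for Cd5 in TAg:T0, and marker scores 0.14 for Sla2 in T0:N0. The cause was not tested.

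Deviations of libraries with equal numbers correlated between -0.23 and 0.14 across groups, so the numbers were not taken as pairs. With the replicate block, 6, 7, 9, 10, 9, 8, 9, 7 and 4 members were called in the 9 comparisons, where Sla2 in TAg:NAg gained a call and Lax1 in TPI:T0 lost one.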

Other observations

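Gm15472 (chr3:103667089-103668346, plus strand, NCBIM37), a processed transcript that lies within Ptpn22 on the same strand without sharing an exon, was looked at after its values were seen. Its mean normalized counts were 170.3 ± 35.7 in N0, 319 ± 50.5 in T0, 873 ± 82.9 in NAg, 334 ± 41.3 in TAg, 2498 ± 28.2 in NPI and 2799 ± 145 in TPI (SD, n = 3). Like Ptpn22 it was higher in NAg than in TAg without overlap, and how its reads relate to those of Ptpn22 was not tested.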
